A study of Mus musculus with 16 samples.

Results

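The integrated stress response is described here through 10 mouse genes, Atf4, Atf5, Ddit3, Trib3, Chac1, Asns, Sesn2, Vldlr, Aars and Gars. They were listed by symbol, and the list was chosen with earlier results of these data known. All 10 were present in the deposited table of 13701 genes. Total RNA was sequenced from 16 libraries in 4 groups of 4: Yap1S5A-labelled liver, GFP-labelled liver, Yap1S5A-labelled quadriceps and GFP-labelled quadriceps. The animals were male C57BL/6J mice aged 12 to 14 weeks, and the tissues were frozen bulk pieces taken on day 7 after infection with an adeno-associated virus (AAV). The genotype label gives AAV-DJ8-TGB-Yap1S5A for one vector and AAV-DJ8-TGB-EGFP for its control, so all 4 groups carried a virus of the same name, and the labels do not spell out TGB. Yap1S5A is a form of the Hippo pathway co-activator Yap1 whose inhibitory serines are changed to alanine. The series calls the expression hepatic, so the quadriceps libraries ask what happens in a muscle when a vector is expressed in the liver. A treatment field of the labels describes partial hepatectomy and sham surgery, which the titles and the genotype field do not mention, and the groups used here rest on the titles.

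The integrated stress response is a translational switch that cells use when amino acids run short, when proteins misfold in the endoplasmic reticulum, when haem is lacking or when double-stranded RNA is sensed. Kinases that sense these states phosphorylate the translation initiation factor eIF2, general protein synthesis falls, and the mRNAs of the transcription factors Atf4, Atf5 and Ddit3 (the protein CHOP) are translated more. Atf4 protein then raises genes of amino acid synthesis, amino acid transport and tRNA charging, together with inhibitors that end the response. Because Atf4 and Atf5 are controlled largely at translation, their mRNA levels are not a direct measure of their proteins.

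Atf4 dimers are known to bind the composite C/EBP-ATF response element, whose core is TGATGNAA. That core was searched on both strands in the RefSeq promoter windows of the members, which run from 250 bases before to 50 bases after each gene start in GRCm38.p6, the build also named mm10. It occurred in windows of 6 of the 10 genes, namely Vldlr, Aars, Asns, Chac1, Gars and Trib3, or in 6 of 12 windows (50%). It occurred in 2.33% of the 13285 windows of genes in the deposited table and in 3.97% of all 32851 windows. The members were chosen as genes of this response, so the larger share among them is descriptive and was not tested. Vldlr and Atf5 had 2 windows each, and the match of Vldlr lay in 1 of them. Neither the cAMP response element TGACGTCA nor the endoplasmic reticulum stress element (CCAAT, 9 free bases, then CCACG) was found on either strand of the 12 windows. These elements occurred in 2.79% and 0.143% of the windows of table genes. The sequences holding the core are printed because several of these 6 genes moved in opposite directions in the same livers. They are RefSeq reference sequence, written 5′ to 3′ on the strand of the gene, with the core in capitals. The 250 bases before the gene start are given, and for Trib3, whose core lies after the start, a stretch of 30 bases.
Vldlr, chr19:27216770-27217019 (+ strand): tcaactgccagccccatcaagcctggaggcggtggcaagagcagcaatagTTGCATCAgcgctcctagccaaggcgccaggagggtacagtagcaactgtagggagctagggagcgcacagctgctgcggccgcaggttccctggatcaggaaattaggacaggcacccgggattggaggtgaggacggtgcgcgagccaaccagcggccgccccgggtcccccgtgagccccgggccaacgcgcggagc
Aars, chr8:111033592-111033841 (+ strand): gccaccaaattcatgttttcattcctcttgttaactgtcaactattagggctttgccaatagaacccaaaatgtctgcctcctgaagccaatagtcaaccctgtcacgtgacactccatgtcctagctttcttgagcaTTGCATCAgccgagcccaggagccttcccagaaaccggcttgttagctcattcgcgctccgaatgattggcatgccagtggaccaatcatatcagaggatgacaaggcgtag
Asns, chr6:7693210-7693459 (- strand): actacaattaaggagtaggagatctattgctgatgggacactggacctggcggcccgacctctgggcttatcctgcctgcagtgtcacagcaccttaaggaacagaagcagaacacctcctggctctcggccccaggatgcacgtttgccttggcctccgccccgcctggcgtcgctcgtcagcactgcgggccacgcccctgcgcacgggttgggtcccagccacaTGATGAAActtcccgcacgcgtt
Chac1, chr2:119350992-119351241 (+ strand): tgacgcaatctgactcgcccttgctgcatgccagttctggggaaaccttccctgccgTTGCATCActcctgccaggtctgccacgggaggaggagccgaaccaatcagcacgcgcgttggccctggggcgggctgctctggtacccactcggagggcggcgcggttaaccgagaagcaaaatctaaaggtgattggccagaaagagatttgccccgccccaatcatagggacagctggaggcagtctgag
Gars, chr6:55037751-55038000 (+ strand): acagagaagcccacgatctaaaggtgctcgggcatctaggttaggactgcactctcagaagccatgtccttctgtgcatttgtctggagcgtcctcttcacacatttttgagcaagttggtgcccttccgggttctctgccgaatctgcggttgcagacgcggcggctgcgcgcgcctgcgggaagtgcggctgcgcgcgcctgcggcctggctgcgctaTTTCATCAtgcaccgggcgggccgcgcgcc
Trib3, chr2:152344028-152344057 (- strand): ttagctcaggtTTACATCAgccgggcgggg

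The core read in the gene's own direction in Asns and on the opposite strand in Vldlr, Aars, Chac1, Gars and Trib3, where the capitals therefore show its reverse complement. The first capital of the printed match lay 23 bases before the start in Asns and 30 in Gars, against 112 in Aars, 193 in Chac1 and 200 in Vldlr. Aars held another match after its start, outside the printed stretch. The core was not found in the windows of Atf4, Atf5, Ddit3 and Sesn2, which says only that these letters are not in those windows. The RefSeq start of Asns differs from the end of the gene in the deposited table.

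Library totals lay between 15743520 and 16491679 counts in Yap1S5A-labelled livers, between 13817718 and 15589362 in GFP-labelled livers, between 15696665 and 19215472 in Yap1S5A-labelled quadriceps and between 15711242 and 16897004 in GFP-labelled quadriceps. The ribosomal gene Rn45s took 4.23 to 4.81% of counts in Yap1S5A-labelled livers, against 0.692 to 9.71% in GFP-labelled livers, where replicate 2 was the lowest. CPM, the count of a gene relative to the total of its library, is scaled here by trimmed means of M values (TMM) within a tissue, and a fold change is Yap1S5A-labelled over GFP-labelled with its standard error. Yap1 itself averaged 51.5 ± 3.48 CPM in livers labelled Yap1S5A, against 75.3 ± 4.81 CPM in GFP-labelled livers (SD, n = 4 each), and its log2 fold change was -0.55 ± 0.12. In quadriceps Yap1 averaged 76.4 ± 7.63 CPM in Yap1S5A-labelled and 63.7 ± 4.77 CPM in GFP-labelled libraries. Its log2 fold change there was 0.26 ± 0.10 and was not called (edgeR adjusted p = 0.11). The direction of Yap1 in liver goes against a label of added Yap1, so the groups are called by their labels throughout. The tissues matched their names: 10 hepatocyte markers summed to at least 138236 CPM in the liver libraries and to at most 171 CPM in the quadriceps libraries. In liver, 14 of 14 macrophage and monocyte markers were called higher (summed level 2907 to 3142 CPM in Yap1S5A-labelled livers, against 162 to 292 CPM in GFP-labelled livers), and 1 of them averaged under 1 CPM in the GFP-labelled group. All 8 markers of proliferating cells were called higher as well, summing to 225 to 265 CPM and to 11.8 to 21.2 CPM in these groups. None of 10 hepatocyte markers was higher, also at an unadjusted edgeR p under 0.05, and 6 were called lower. Their summed level overlapped, at 139189 to 166216 CPM in Yap1S5A-labelled livers and 138236 to 158863 CPM in GFP-labelled livers. Most of that sum was Alb, which averaged 126728 and 109737 CPM in these groups and was not called (log2 fold change 0.21). The median log2 fold change over the 10 was -0.73, so their sum does not stand for each of them.

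In liver, 4 of the 10 genes differed between the vectors. The lipoprotein receptor Vldlr and the asparagine synthetase Asns were higher in Yap1S5A-labelled livers, and the pseudokinase Trib3 and the alanyl-tRNA synthetase Aars were lower. Vldlr was 6.97-fold higher and Aars 2.27-fold lower, and the transcription factors Atf4, Atf5 and Ddit3 did not pass the test. A gene was called at an adjusted p under 0.05 by edgeR's quasi-likelihood test with Benjamini-Hochberg adjustment over all genes tested in that comparison. Over the 12818 genes tested in liver, 63.6% were called, 33.3% higher and 30.3% lower, so the 2 higher and 2 lower members make up no larger a share than genes in general. The median log2 fold change was 0.17 over the members and 0.03 over all genes tested, and the median absolute log2 fold change was 0.34 over the members and 0.66 over all genes. In these bulk samples, fewer cells of a type and less RNA per cell cannot be told apart, and markers of other cell types moved with every liver result below. Besides the macrophage, proliferation and hepatocyte markers, 3 of 7 bile duct and progenitor markers were called higher (summed level 1427 to 1850 CPM in Yap1S5A-labelled livers, against 59.0 to 87.7 CPM in GFP-labelled livers). The median log2 fold change over these 7 was 1.18, so the sum does not stand for each of them. Of 10 stellate cell and fibroblast markers, 6 were called higher and 1 lower (947 to 1403 CPM, against 198 to 381 CPM), and of 10 endothelial markers, 8 higher and none lower (441 to 494 CPM, against 225 to 266 CPM). The part of these cell types in the liver results was not tested.

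**Figure D1:**
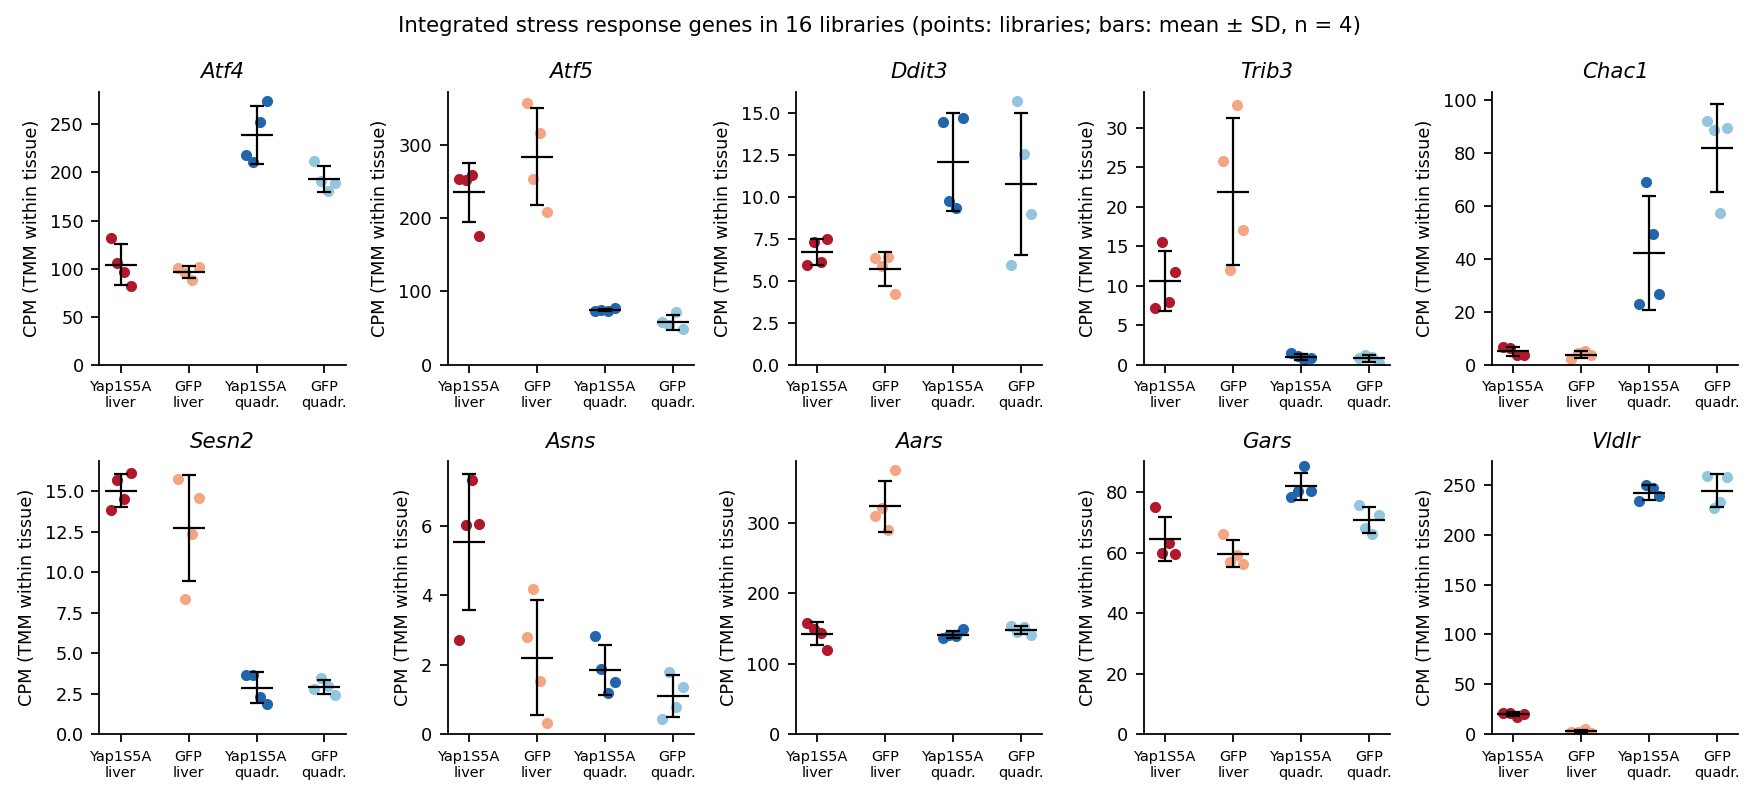
Level of each of the 10 genes in each of 16 libraries, in CPM with TMM scaling within the tissue on linear axes that start at 0. Points are libraries and bars are the mean ± SD of 4; the 4 Vldlr points of Yap1S5A-labelled livers and the 4 Aars points of GFP-labelled livers lie above every point of the other liver group.

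Among the transcription factors, Atf4 (chromosome 15, 80255184 to 80257545, mm10) is the main effector of the response. It stood at 132, 106, 95.9 and 82.3 CPM in Yap1S5A-labelled livers, against 101, 95.5, 88.0 and 101 CPM in GFP-labelled livers. The groups overlapped, with the highest and the lowest library both in the Yap1S5A-labelled group. The log2 fold change was 0.11 ± 0.15 (edgeR adjusted p = 0.54), and without the highest library, replicate 1, it was -0.06. Atf5 (chromosome 7, 44812256 to 44816658), a related factor that in mammals is known for the mitochondrial stress response, stood at 253, 252, 259 and 175 CPM in Yap1S5A-labelled livers, against 357, 253, 316 and 208 CPM in GFP-labelled livers. The lowest library was replicate 4 of the Yap1S5A-labelled group and the groups overlapped, with a log2 fold change of -0.27 ± 0.18 (edgeR adjusted p = 0.21). Ddit3 (chromosome 10, 127290793 to 127296288) encodes CHOP, the factor linked to cell death under lasting stress. It stood at 5.93, 7.28, 6.11 and 7.46 CPM in Yap1S5A-labelled livers, against 6.37, 5.86, 6.40 and 4.19 CPM in GFP-labelled livers. The ranges overlapped, and the log2 fold change was 0.23 ± 0.19 (edgeR adjusted p = 0.31). Of the 871 exonic bases of Ddit3, 68 are shared with the methionyl-tRNA synthetase gene Mars on the opposite strand, and 82 of the 1993 bases of Atf5 with Il4i1 and Nup62. The strand setting of the counting is not given, and reads of these stretches cannot be told apart.

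The feedback and effector genes behaved unlike each other. Trib3 (chromosome 2, 152337425 to 152344060) encodes a pseudokinase that is raised by Atf4 and CHOP and holds both back. It stood at 7.15, 15.5, 7.97 and 11.7 CPM in Yap1S5A-labelled livers, against 25.8, 11.9, 32.9 and 16.998 CPM in GFP-labelled livers. Replicate 2 was the highest library of the Yap1S5A-labelled group and replicate 2 the lowest of the GFP-labelled group, and these overlapped. Trib3 was 2.07-fold lower, with a log2 fold change of -1.05 ± 0.32 (edgeR adjusted p = 0.012). Chac1 (chromosome 2, 119351242 to 119354327), an enzyme that breaks down glutathione, stood at 6.65, 6.33, 3.60 and 3.57 CPM in Yap1S5A-labelled livers, against 1.94, 4.54, 5.03 and 3.61 CPM in GFP-labelled livers. Its groups overlapped, with a log2 fold change of 0.41 ± 0.31 (edgeR adjusted p = 0.25). Sesn2 (chromosome 4, 132492807 to 132510456), a leucine sensor that restrains mTORC1, lay between 13.9 and 16.1 CPM in Yap1S5A-labelled livers, against between 8.34 and 15.8 CPM in GFP-labelled livers, and was not called either (log2 fold change 0.24 ± 0.18, edgeR adjusted p = 0.27).

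The amino acid and tRNA-charging targets were split. Asns (chromosome 6, 7675171 to 7693182) makes asparagine from aspartate and is a standard reporter of Atf4 activity. It stood at 2.72, 6.02, 7.31 and 6.05 CPM in Yap1S5A-labelled livers, against 2.80, 4.17, 1.52 and 0.328 CPM in GFP-labelled livers. It rested on few reads, 412 counts in the Yap1S5A-labelled and 117 in the GFP-labelled livers, and the lowest Yap1S5A-labelled library lay within the GFP-labelled range. Asns was 2.48-fold higher, with a log2 fold change of 1.31 ± 0.50 (edgeR adjusted p = 0.036). The call was lost without Yap1S5A-labelled replicate 2, 3 or 4 (log2 1.23, 1.11 and 1.24) and without GFP-labelled replicate 1 or 3 (1.43 and 1.16), at edgeR adjusted p of 0.053 to 0.098.

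Aars (chromosome 8, 111033842 to 111055569) charges tRNA with alanine. It stood at 157, 150.0, 144 and 119 CPM in Yap1S5A-labelled livers, against 309.8, 320.5, 289.8 and 375 CPM in GFP-labelled livers. Every Yap1S5A-labelled library lay below every GFP-labelled one, and the log2 fold change was -1.18 ± 0.14 (edgeR adjusted p = 5.47e-06). Gars (chromosome 6, 55038001 to 55079504) charges tRNA with glycine. It stood at 75.0, 59.8, 63.3 and 59.7 CPM in Yap1S5A-labelled livers, against 66.2, 57.0, 59.0 and 56.2 CPM in GFP-labelled livers, and the groups overlapped. Its log2 fold change was 0.11 ± 0.12 (edgeR adjusted p = 0.45). Both synthetase genes hold the Atf4 core in the sequences above. Among 20 cytosolic synthetase genes ranked by log2 fold change in liver, Aars was the lowest and Gars stood at rank 15.

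Vldlr (chromosome 19, 27217020 to 27254231) encodes a receptor for triglyceride-rich lipoproteins, which signalling through the kinase PERK and Atf4 is known to raise in mouse liver. It stood at 21.7, 20.8, 17.3 and 20.1 CPM in Yap1S5A-labelled livers, against 2.64, 2.27, 5.03 and 1.48 CPM in GFP-labelled livers. The groups were far apart, with a log2 fold change of 2.80 ± 0.27 (edgeR adjusted p = 5.91e-07), and 92.2% of the genes tested had a lower log2 fold change. Vldlr and Aars were the 2 members without overlap between the liver groups, a pattern seen in 57.4% of the genes tested. Both kept their call and direction in all 15 alternative liver fits.

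**Figure D2:**
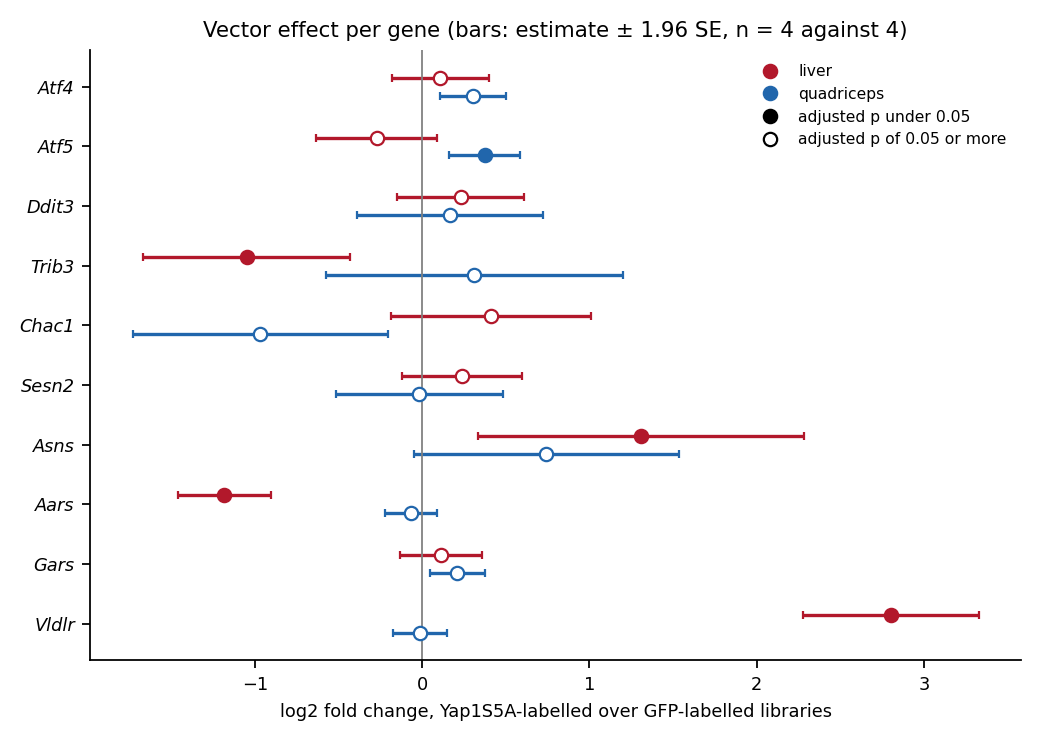
Log2 fold change of each gene, Yap1S5A-labelled over GFP-labelled, in liver (red) and quadriceps (blue), with bars for the approximate 95% interval from 4 against 4 libraries. Filled points passed the edgeR adjusted p of 0.05: Vldlr (2.80), Asns (1.31), Trib3 (-1.05) and Aars (-1.18) in liver, and Atf5 (0.37) in quadriceps.

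In liver, log2 fold changes followed exonic length, with a Spearman's rho of 0.32 across genes, whose values share libraries and give no p. Genes up to 1333 bases long had a median of -0.67 and genes above 5920 bases a median of 0.39. In quadriceps the shortest and longest eighths had medians of 0.05 and -0.02. The members range from Ddit3 with 871 bases to Vldlr with 8308. With the length trend of each library taken out, the 3 shortest members passed the test as higher in Yap1S5A-labelled livers. Ddit3 then had a log2 fold change of 1.03 ± 0.17 (edgeR adjusted p = 0.00013), Chac1 of 0.83 ± 0.31 (edgeR adjusted p = 0.033) and Atf4 of 0.46 ± 0.15 (edgeR adjusted p = 0.018). The 4 genes called without the correction stayed called in the same direction, Vldlr at 2.35 and Asns at 1.59, Trib3 at -0.82 and Aars at -1.32. The count of members called higher was therefore 5 with the correction and 2 without it. Of all genes called in liver, 54.3% were higher with the correction and 52.3% without it. The share of all tested genes called with the correction is not given here. The count of 5 is therefore not set against genes in general. What produces the length trend was not tested.

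**Figure D3:**
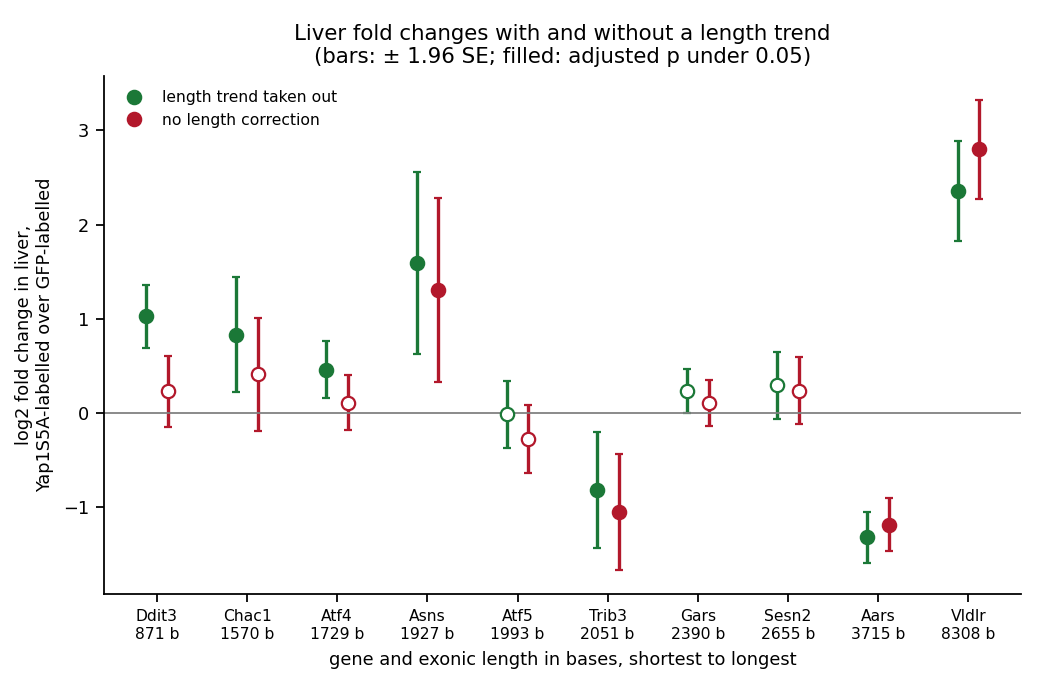
Log2 fold change in liver of the 10 genes, ordered by exonic length from 871 to 8308 bases, with the length trend taken out (green) and without a length correction (red). Bars are the approximate 95% interval and filled points passed the edgeR adjusted p of 0.05; Ddit3, Chac1 and Atf4 are filled with the correction alone.

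In quadriceps, 1 of the 10 genes passed the test. Atf5 was 1.30-fold higher in Yap1S5A-labelled quadriceps, standing at 73.6, 74.8, 72.8 and 77.1 CPM, against 57.4, 53.4, 71.1 and 48.3 CPM in GFP-labelled quadriceps. The groups did not overlap, but GFP-labelled replicate 3 came close to the Yap1S5A-labelled range. The log2 fold change was 0.37 ± 0.11 (edgeR adjusted p = 0.045). Atf5 remained called without GFP-labelled replicate 3 and lost its call when any of the other 7 quadriceps libraries was left out, at log2 fold changes of 0.30 to 0.38 and edgeR adjusted p of 0.083 to 0.145. With the deposited library sizes it was not called either (0.36, edgeR adjusted p = 0.052). Of 12121 genes tested in quadriceps, 9.03% were called, 4.21% higher and 4.82% lower. Macrophage and monocyte markers moved here too, with 10 of 11 tested called higher and a summed level of 176 to 308 CPM in Yap1S5A-labelled and 61.4 to 115 CPM in GFP-labelled quadriceps. The 12 skeletal muscle markers summed to 152682 to 187779 CPM in Yap1S5A-labelled and 205939 to 245004 CPM in GFP-labelled quadriceps, without overlap, and 1 of them was called higher and 3 lower. The 10 hepatocyte markers summed to 171 and 105 CPM in Yap1S5A-labelled replicates 1 and 2, against 23.3 to 34.5 CPM in the other 6 quadriceps libraries. Without these 2 libraries Atf5 was not called (0.38, edgeR adjusted p = 0.156) and Atf4 was (0.45, edgeR adjusted p = 0.040). The part of the marker differences in the quadriceps results was not tested.

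The other 9 members did not pass in quadriceps. Atf4 stood at 218, 211, 253 and 274 CPM in Yap1S5A-labelled quadriceps, against 212, 191, 180.4 and 189.5 CPM in GFP-labelled quadriceps. GFP-labelled replicate 1 lay within the Yap1S5A-labelled range, and the log2 fold change was 0.31 ± 0.10 (edgeR adjusted p = 0.076). DESeq2 gave 0.30 for Atf4 at an adjusted p of 0.044. Gars, at 78.2, 80.2, 88.4 and 80.4 CPM in Yap1S5A-labelled quadriceps against 75.7, 68.2, 66.1 and 72.5 CPM in GFP-labelled quadriceps, did not overlap between the groups. Its log2 fold change was 0.21 ± 0.08 (edgeR adjusted p = 0.14). Non-overlap held for 2 members, Atf5 and Gars, and for 15.5% of the genes tested. An unadjusted edgeR p under 0.05 was reached by 4 of the 10 members, Atf4, Atf5, Chac1 and Gars, and by 23.6% of the genes tested.

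Chac1 varied widely between muscles for a gene of its count. It stood at 22.7, 69.1, 49.2 and 26.7 CPM in Yap1S5A-labelled quadriceps, against 92.1, 88.4, 57.0 and 89.2 CPM in GFP-labelled quadriceps. Replicates 1 and 4 were low and replicates 2 and 3 higher in the Yap1S5A-labelled group, and GFP-labelled replicate 3 lay within its range. The log2 fold change was -0.97 ± 0.39 (edgeR adjusted p = 0.20), and 1.09% of the genes tested had a lower one. The coefficient of variation of Chac1 was 51.3% in Yap1S5A-labelled quadriceps, where the median over genes of similar count was 9.27%, and 20.2% in GFP-labelled quadriceps, where that median was 8.93%. Atf5 varied little in Yap1S5A-labelled quadriceps, with a coefficient of variation of 2.50% beside a median of 8.70%, and more in GFP-labelled quadriceps, with 17.01% beside 9.04%.

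The low and the steady members of muscle showed no call. Asns had 133 counts in all in Yap1S5A-labelled and 71 in GFP-labelled quadriceps, and its log2 fold change was 0.74 ± 0.40 (edgeR adjusted p = 0.29). Trib3 had 72 and 52 counts in these groups, with a log2 fold change of 0.31 and an interval of -0.58 to 1.20. Vldlr was abundant and steady, at 242 ± 7.42 CPM in Yap1S5A-labelled and 244 ± 16.6 CPM in GFP-labelled quadriceps (SD, n = 4 each), with an interval of its log2 fold change of -0.18 to 0.15. Aars averaged 142 ± 5.19 and 148 ± 5.74 CPM in these groups, with an interval of -0.22 to 0.09. Ddit3 (0.16 ± 0.28) and Sesn2 (-0.02 ± 0.25) had log2 fold changes within about 1 standard error of 0.

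The difference between the liver and the quadriceps fold change was tested in one fit of all 16 libraries, which uses the same libraries as the comparisons above. Vldlr, Chac1, Aars and Atf5 differed between the tissues. For Vldlr the liver fold change exceeded that of quadriceps by 2.81 ± 0.28 on the log2 scale (edgeR adjusted p = 1.05e-07), and for Chac1 by 1.37 ± 0.51 (edgeR adjusted p = 0.036). For Aars it was lower in liver, at -1.12 ± 0.16 (edgeR adjusted p = 1.47e-05), and for Atf5 at -0.65 ± 0.23 (edgeR adjusted p = 0.025). Over the 13669 genes tested, 48% differed, 25.5% with the larger value in liver and 22.5% with the smaller, so 4 of 10 members is no larger a share. Trib3, with a difference of -1.37 ± 0.60 (edgeR adjusted p = 0.070), and Asns, with 0.57 ± 0.71 (edgeR adjusted p = 0.54), did not pass, so the Trib3 and Asns calls in liver are not shown to be particular to liver.

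Vldlr and Aars passed this test in all 24 alternative fits. Chac1 lost its call without Yap1S5A-labelled liver replicate 1 or 2 (1.05 and 1.08), GFP-labelled liver replicate 1 or 4 (1.1496 and 1.36), Yap1S5A-labelled quadriceps replicate 4 (1.20) and GFP-labelled quadriceps replicate 1, 2 or 4 (1.33, 1.35 and 1.35), at edgeR adjusted p of 0.052 to 0.125. Atf5 lost its call without GFP-labelled liver replicate 1 or 3 (-0.52 and -0.56), Yap1S5A-labelled quadriceps replicate 2 (-0.61) and GFP-labelled quadriceps replicate 2 or 4 (-0.59 and -0.54), at edgeR adjusted p of 0.052 to 0.073. Trib3 passed without Yap1S5A-labelled liver replicate 2 (-1.77), GFP-labelled liver replicate 2 (-1.58) or GFP-labelled quadriceps replicate 2 (-1.67). Without Yap1S5A-labelled liver replicate 1, Atf4 (-0.50) and Gars (-0.34) passed as well. Relative log expression (RLE) factors in place of TMM ended the Chac1 call (1.27, edgeR adjusted p = 0.053) and gave one for Trib3 (-1.47, edgeR adjusted p = 0.048), and with the length trend taken out Ddit3 passed (0.77, edgeR adjusted p = 0.046). Without Yap1S5A-labelled quadriceps replicates 1 and 2 together, Atf5 lost its call (-0.68, edgeR adjusted p = 0.052).

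Between the tissues without the Yap1S5A vector, 9 of the 10 genes differed. Trib3, Atf5, Sesn2 and Aars were higher in GFP-labelled liver than in GFP-labelled quadriceps, and Vldlr, Chac1, Atf4, Ddit3 and Gars were lower. This comparison shares its GFP-labelled libraries with those above. The background was wide, since 78.5% of the 13669 genes were called, 39.2% higher in liver and 39.3% lower. In CPM scaled over all 16 libraries, Trib3 averaged 20.1 ± 8.52 CPM in liver and 0.887 ± 0.497 CPM in quadriceps (SD, n = 4 each), a log2 difference of 4.47 ± 0.42 (edgeR adjusted p = 8.29e-09). Chac1 was lower in liver, with 3.46 ± 1.23 CPM in liver and 89.9 ± 18.1 CPM in quadriceps and a log2 difference of -4.70 ± 0.39. Vldlr had 2.61 ± 1.40 CPM in liver and 269 ± 18.1 CPM in quadriceps, a level 102-fold lower in liver. The log2 difference was 2.03 ± 0.17 for Atf5, 1.86 ± 0.23 for Sesn2 and 0.86 ± 0.12 for Aars, against -1.27 ± 0.13 for Atf4, -1.19 ± 0.25 for Ddit3 and -0.51 ± 0.10 for Gars. Asns had 1.998 ± 1.48 CPM in liver and 1.21 ± 0.657 CPM in quadriceps and was not called (log2 difference 0.73 ± 0.53, edgeR adjusted p = 0.22); without GFP-labelled liver replicate 4 it was (1.07, edgeR adjusted p = 0.041). The libraries of the 2 tissues did not overlap for 9 members and for 72% of all genes tested.

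Divided by exonic length, the levels of the members can be set in order, in CPM per kilobase scaled over the 16 libraries. In Yap1S5A-labelled liver the order was Atf5 (107 ± 17.99), Atf4 (54.5 ± 10.3), Aars (34.8 ± 3.85), Gars (24.4 ± 2.35), Ddit3 (6.98 ± 0.895), Sesn2 (5.14 ± 0.418), Trib3 (4.69 ± 1.75), Chac1 (2.91 ± 0.953), Asns (2.61 ± 0.947) and Vldlr (2.18 ± 0.196, SD, n = 4). From Atf5 to Ddit3 no gene overlapped with the next one down, and from Sesn2 on each gene overlapped with the next. In GFP-labelled liver Atf5 (129.9 ± 29.5) was followed by Aars (79.8 ± 10.03) and then Atf4 (51.1 ± 3.71), so that Aars and Atf4 stood in the opposite order there. Gars (22.8 ± 1.66) came next without overlap, and the genes from Trib3 (9.78 ± 4.16) to Vldlr (0.314 ± 0.168) overlapped each with the next.

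In quadriceps Atf4 led in both groups, at 151 ± 16.9 CPM per kilobase in Yap1S5A-labelled and 123 ± 8.89 in GFP-labelled libraries, and did not overlap with the gene below it. The next places in Yap1S5A-labelled quadriceps were held by Aars (41.7 ± 1.30), Atf5 (41.0 ± 1.09) and Gars (37.5 ± 1.74), which overlapped in turn. In GFP-labelled quadriceps Chac1 (57.3 ± 11.5) and Aars (43.9 ± 1.88) held the second and the third place and overlapped, and Chac1 stood in the sixth place in Yap1S5A-labelled quadriceps (29.3 ± 15.3). Sesn2, Asns and Trib3 were the lowest genes in both quadriceps groups, between 0.433 and 1.21 CPM per kilobase on average.

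**Figure D4:**
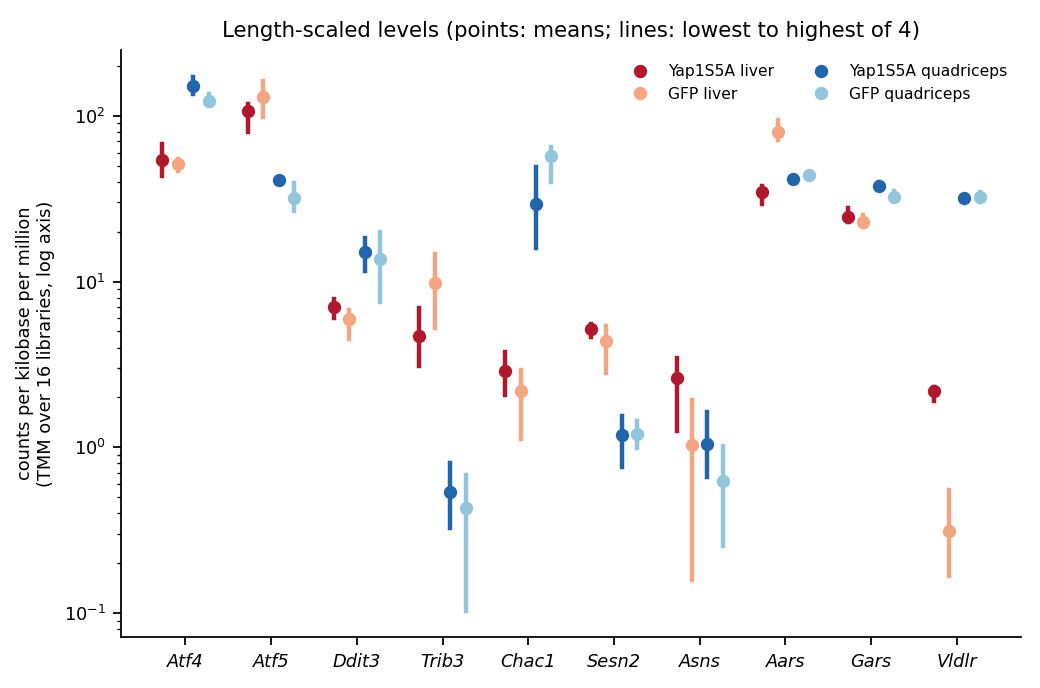
Level of each gene in CPM per kilobase of exonic length, on a log axis, with TMM scaling over 16 libraries. Points are means and lines run from the lowest to the highest of 4 libraries; Vldlr spans from 0.314 in GFP-labelled liver to 32.3 in GFP-labelled quadriceps.

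Other genes of the pathway were also called in both directions in liver. Their counts stand beside a background of 63.6% of all genes called, 33.3% higher and 30.3% lower, so a list with about 1 gene in 3 called each way is no different from genes in general. Of 10 amino acid synthesis targets tested, 5 were higher and 4 lower. The serine synthesis genes Psat1 and Phgdh averaged 13.7 ± 3.22 and 4.36 ± 1.64 CPM in Yap1S5A-labelled livers, against 0.438 ± 0.247 and 0.188 ± 0.178 CPM in GFP-labelled livers (SD, n = 4 each). Their log2 fold changes were 4.93 and 4.45, and that of the proline synthesis gene Aldh18a1 was 3.46. The aspartate aminotransferase Got1 (-2.45), the mitochondrial serine hydroxymethyltransferase Shmt2 (-1.38) and the cysteine-forming enzyme Cth (-0.86) fell. Of 8 amino acid transporters, 4 were higher and 3 lower. Slc7a1 (3.39), which carries cationic amino acids, Slc1a5 (1.62), which carries glutamine, and Slc7a5 (1.54), which carries large neutral ones, rose. The glycine carrier Slc6a9 (-2.43), the neutral amino acid carrier Slc43a1 (-2.02) and Slc38a2 (-0.38) fell.

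Genes upstream of Atf4 were called in both directions in liver. Of 16 genes of kinases, eIF2, the exchange factor eIF2B and phosphatase cofactors, 2 were higher and 7 lower, a share called that is no larger than the 63.6% over all genes. The higher ones were the kinase genes Eif2ak2 (0.88), whose protein PKR senses double-stranded RNA, and Eif2ak3 (0.75), whose protein is PERK. The lower ones included the eIF2B subunits Eif2b4 (-1.23), Eif2b1 (-1.17) and Eif2b5 (-0.96). Of 13 partner factors of the bZIP type, 3 were higher, led by Jdp2 (3.98) and the stress-induced Atf3 (1.73), and 2 were lower, the hepatocyte factors Cebpb (-1.11) and Cebpa (-1.10). Of 11 other Atf4 and CHOP response genes, 3 were higher, Stc2 (3.67), Tnfrsf10b (1.79) and Nupr1 (1.57), and 5 lower, among them the stress hormone gene Gdf15 (-1.57), Herpud1 (-1.08) and the translation repressor Eif4ebp1 (-0.70). With the length trend taken out, 5 of the bZIP partners and 2 of these response genes were lower. The share of all genes called lower in that fit and the higher calls of these lists are not given here. These 2 counts are therefore not set against genes in general.

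The other lists are set beside the same 33.3% higher and 30.3% lower in liver. None of 18 endoplasmic reticulum chaperones of the IRE1 and ATF6 arms was called higher by edgeR, by DESeq2 or at an unadjusted p under 0.05, and 7 were lower, among them Dnajb11 (-1.07). Of 12 mitochondrial chaperones and proteases, 2 were higher and 9 lower, with Clpp at -1.80 and Lonp1 at -1.48. Of 17 mitochondrial tRNA synthetases, none was higher by these 3 measures and 10 were lower, led by Aars2 (-1.47), the mitochondrial counterpart of Aars. Of 18 cytosolic synthetases other than Aars and Gars, 2 were higher, Wars (0.47) and Vars (0.34), and 8 lower, among them Mars (-0.82), Tars (-0.82) and Sars (-0.79). With RLE factors, for which the share over all genes is not given here, 1 of these 18 was called higher. Of 9 paralogues of the members, 4 were higher, including the Trib3 relative Trib2 (1.72) and the Vldlr relative Lrp2 (1.65), and 4 lower, including Chac2 (-1.05) and Trib1 (-0.88). The list medians, from -0.94 for the mitochondrial chaperones to 0.51 for the transporters, stand beside 0.03 over all genes tested.

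**Figure D5:**
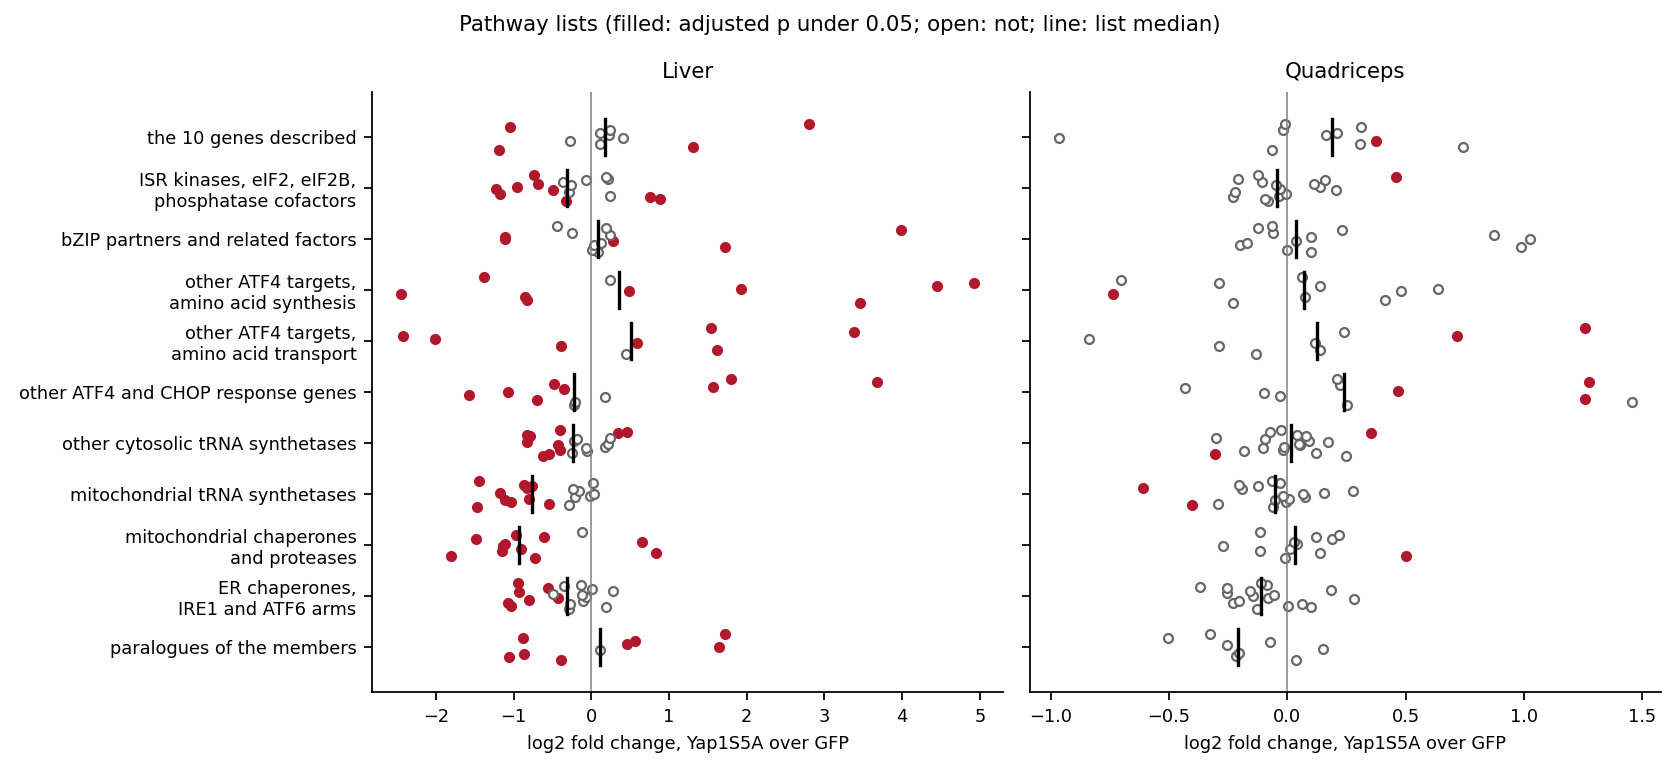
Log2 fold change, Yap1S5A-labelled over GFP-labelled, of every tested gene of the 10 members and of 10 pathway lists in liver (left) and quadriceps (right). Filled points passed the edgeR adjusted p of 0.05 and vertical lines are list medians; the liver median is -0.94 for the mitochondrial chaperones and 0.51 for the amino acid transporters.

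In quadriceps few list genes were called, against the background of 9.03%. Of 10 other Atf4 and CHOP response genes tested, 3 were higher and none lower. Stc2 averaged 4.196 ± 1.93 CPM in Yap1S5A-labelled and 1.74 ± 0.201 CPM in GFP-labelled quadriceps, Eif4ebp1 78.8 ± 30.6 and 32.998 ± 3.64 CPM, and the autophagy gene Map1lc3b 179 ± 29.7 and 129.0 ± 7.46 CPM (SD, n = 4 each). Their log2 fold changes were 1.27, 1.26 and 0.47. Of 8 transporters, Slc7a5 (1.26) and Slc6a9 (0.72) were higher, the second of which had fallen in liver. Ppp1r15a (0.46), the phosphatase cofactor GADD34 that reverses eIF2 phosphorylation, was the 1 called gene of its list of 16. The alanine aminotransferase Gpt2 (-0.74) was the 1 called gene of 10 amino acid synthesis targets. Without Yap1S5A-labelled quadriceps replicates 1 and 2, the list of Ppp1r15a and the amino acid synthesis targets had 0 calls each. The transporters then had 1 gene higher and the other Atf4 and CHOP response genes 2. Over all genes tested in quadriceps, 271 were called higher and 256 lower in that alternative. No gene of the bZIP partners, the endoplasmic reticulum chaperones or the paralogues was called by edgeR, where 1, 3 and 1 of them had an unadjusted p under 0.05; DESeq2 called 1 paralogue and no gene of the other two lists. The remaining lists had 1 or 2 calls each.

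Within groups the 10 genes did not move as one. Over the 45 pairs, Pearson's r between deviations of log2 CPM from the group means, taken over the 16 libraries, was positive in 25 and had a median of 0.08. It ranged from -0.60 for Asns with Aars to 0.68 for Atf4 with Aars. The 5 genes whose deviations were most like those of Atf4, among 7129 with at least 5 CPM in every group, were the proteasome subunit genes Psmd1 (r = 0.89) and Psmd3 (0.88), and Arl1 (0.87), Sar1a (0.87) and Ubr3 (0.87). These values describe 16 libraries that share preparation and depth.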

How the data were processed

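Whole-tissue RNA from 16 libraries was prepared with an Ion Total RNA-Seq kit, per the labels' protocols. Per the submitters' processing notes, FastQC 0.11.5, STAR 2.4.2a and featureCounts (Subread 1.5.0) were used with the mm10 build, with settings that these notes leave out. The authors deposited one table of 13701 genes with raw counts per gene, which were the values tested, exonic length in bases (the deposited annotation columns) and a scaled signal per library, of which only the implied library sizes served, as an alternative. No column of values was without a sample, and 21 symbols had been turned into dates.

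From the counts, R 4.3.3 with edgeR 4.0.16 was used within each tissue for the vectors and over all libraries for the tissue contrasts (filterByExpr, TMM, robust quasi-likelihood fit, Benjamini-Hochberg threshold 0.05). Alternatives used RLE, upper-quartile or deposited sizes, no filter, a length trend taken out, a replicate block, DESeq2 1.42.0, each library left out in turn and, chosen after seeing the data, a pair of quadriceps libraries left out. On simulated counts with 200 changed genes, 96% of those changed 2-fold were recovered in the liver design, 95% in quadriceps and 52% for the difference between tissues. The changed genes were drawn without those of low counts, and all genes were given the same spread. In the liver design 200 of 12815 genes were changed and no length trend was simulated, whereas 63.6% of genes were called in the liver data. These shares therefore do not carry over to the liver data as they stand. They also do not apply to members with few counts or a wide spread, such as Trib3 and Chac1 in quadriceps.

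The members and pathway lists were chosen with earlier results of these data known. Named beside the members were at most the 3 called genes with the largest change per list and direction, and the 5 genes most like Atf4. Liver and quadriceps samples of a vector share sample numbers in the deposited sheet. These were read as mice, which no label states, so the block between tissues rests on that reading, and no number pairs the vectors. Deviations from group means correlated at -0.009 to 0.087 between tissues of the same number, and at -0.170 to 0.055 between vectors. Nothing else says that replicates are separate animals, so p-values measure the spread between these samples. Replicates differed by more than sampling noise, with a chi-square of 12.2 to 63.7 per degree of freedom. Sequences came from RefSeq windows of GRCm38.p6, matched by symbol for 10 of 10 members, and exon overlaps from GENCODE.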

Additional observations from a re-analysis of the deposited data

Results flagged for a closer look

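Atf5 in Yap1S5A-labelled liver replicate 4 stood at 175 CPM, apart from the other 3 libraries of its group at 252 to 259 CPM. Chac1 in GFP-labelled quadriceps replicate 3 stood at 57.0 CPM, apart from the other 3 at 88.4 to 92.1 CPM. These were 2 of 40 groups of 4 libraries examined by Dixon's test, which flags about 1 in 20 groups by chance.

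The vector effect differed between liver and quadriceps for 4 genes in the fit over all libraries (edgeR). The difference, liver minus quadriceps on the log2 scale, was 2.81 for Vldlr, 1.37 for Chac1, -0.65 for Atf5 and -1.12 for Aars. Chac1 averaged 5.04 ± 1.68 CPM in Yap1S5A-labelled and 3.78 ± 1.36 CPM in GFP-labelled livers, and 42.0 ± 21.5 CPM in Yap1S5A-labelled and 81.7 ± 16.5 CPM in GFP-labelled quadriceps (SD, n = 4 each), so the 2 differences had opposite signs and neither passed on its own.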

How the results depend on the processing

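Over the alternatives, 724 of 790 member fold changes kept their direction and their side of the threshold, among them every value of Vldlr and Aars in liver and in the difference between tissues. With the length trend taken out, 5 members were higher in liver. The replicate block, a shared number only between vectors, left 1 member higher and 1 lower in liver (Asns 1.44, adjusted p = 0.051; Trib3 -1.02, adjusted p = 0.076) and 0 higher in quadriceps (Atf5 0.39, adjusted p = 0.066). For the contrasts between tissues, where shared sample numbers were read as mice, the block changed no call of a member. In quadriceps, deposited library sizes gave 0 members higher (Atf5 0.36) and DESeq2 gave 2; with the length trend taken out Vldlr was at 0.019. For the difference between tissues, RLE factors gave 1 member higher (Chac1 1.27) and moved the median of all genes by -0.10, with Ddit3 at -0.038 there and at -0.037 with DESeq2; both called Trib3 (-1.47). The length trend moved that median by -0.16, and upper-quartile factors moved the GFP tissue median by -0.18. For the alternatives of this paragraph the share of all genes called is not given. Their member counts are therefore not set against genes in general.

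Leaving out one library gave 1 to 2 members higher in liver, 0 to 1 in quadriceps, and 1 to 2 higher with 1 to 4 lower for the difference between tissues. Over all quadriceps genes it gave 277 to 464 higher and 325 to 560 lower, lowest without GFP-labelled replicate 4. Over all liver genes it gave 3810 to 4195 higher and 3622 to 4049 lower. For the difference between tissues it gave 2820 to 3545 genes higher and 2713 to 3890 lower. Fold changes crossed 0 for Atf4 (-0.060 to 0.16) and Gars (-0.0028 to 0.16) in liver, for Ddit3 (-0.041 to 0.40), Trib3 (-0.010 to 0.63), Sesn2 (-0.17 to 0.15) and Vldlr (-0.047 to 0.015) in quadriceps, and for Ddit3 (-0.15 to 0.29) in the difference between tissues. Of 1580 list counts, 112 moved by more than 1.5 times or changed to or from 0. Asns and, in quadriceps, Trib3 rested on 52 to 412 counts per group. Leaving out Yap1S5A-labelled quadriceps replicates 1 and 2 together, an alternative chosen after seeing the data, gave 271 genes higher and 256 lower in quadriceps, Trib3 at -0.13 there, and 1 member lower for the difference between tissues. The cause of these changes was not tested.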
